A study of Homo sapiens with 2 samples.

Results

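Ubiquitin-conjugating enzymes, called E2s, form the middle step of the ubiquitin cascade, and the protein-coding genes of the human annotation whose symbols start with UBE2 were examined for ING5 binding at their promoters. The annotation held 37 such genes among 19819 protein-coding genes on chromosomes 1 to 22 and X. ING5 was profiled by ChIP-seq in HepG2 cells, an established human liver cancer line, which were kept under the supplier's recommended conditions and left untreated. The series holds 1 library made with an antibody against ING5 and 1 library of input DNA from the same line, with no tagged protein, knockdown or second line. The input served only as the control of the peak caller. With single libraries there was no replicate error, conditions were not compared, and no interval covers variation between libraries.

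In the cascade, an E1 enzyme activates ubiquitin, an E2 carries it as a thioester on its active-site cysteine, and an E3 ligase places it on a substrate. The E2 largely sets the kind of chain that is built, and several E2s carry a ubiquitin-like protein such as SUMO or NEDD8 instead. E2s take part in the ordered breakdown of cell cycle proteins, in DNA damage repair and tolerance, and in the removal of misfolded proteins from the endoplasmic reticulum (ER). ING5 belongs to histone acetyltransferase complexes and recognises methylated H3 tails through its plant homeodomain finger.

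A gene was counted as bound when a peak of the authors' list had its summit within 1000 bp of any annotated transcription start site (TSS) of the gene on GRCh38. The pileup of a peak is the number of fragments over its summit. Its fold enrichment is the ratio of that pileup to the local background, with a pseudocount of 1 added to each. Pileup and fold enrichment are the authors' values. The libraries held 12416160 ING5 fragments and 9915170 input fragments, and the list held 8608 peaks with a median pileup of 12. None of the 10 hepatocyte genes checked, among them ALB and HNF4A, had a promoter peak, nor did the 3 blood and 3 fibroblast genes. Promoter binding of ING5 is not a measure of expression, so these genes do not check the labelled cell type.

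ING5 peaks were found at the promoters of 17 of the 37 E2 genes (45.9%). Over all protein-coding genes the share was 30.9% (6126 of 19819). The exact binomial 95% interval of the E2 share ran from 29.5% to 63.1% and so held the share of all genes. Under 4 of 9 alternative settings it lay wholly above the share of all genes. One of these left out genes that share their best summit (24.6% to 59.3%, beside 23.5%). Only a bound gene can have such a summit, so that setting removes bound genes alone. It took out 17.6% of the bound E2 genes and 31.5% of all bound genes. The share of all genes thus fell more by construction, and no conclusion is drawn from that setting. The genes are a fixed family and not a sample, and no test of the difference was made. Among the bound genes were UBE2B, UBE2C, UBE2D1, UBE2D2, UBE2G1, UBE2H, UBE2J1, UBE2J2, UBE2K, UBE2L3, UBE2N, UBE2O, UBE2Q1, UBE2Q2, UBE2R2 and UBE2W. The 17 genes carried 20 promoter peaks in all, and UBE2G1 and UBE2J2 were among the 3 with a second one.

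The bound E2 genes covered 3 of 4 members of the cell cycle branch, 2 of 5 of the DNA repair and tolerance branch, and 3 of 4 of the ER branch. Among the general ubiquitin chain E2s, a mixed group that also takes in UBE2V1, UBE2O and UBE2W, 8 of 14 were bound. None of the 5 genes outside the branches was bound: UBE2F-SCLY, UBE2L5, UBE2NL, UBE2QL1 and UBE2U. With 4 to 14 genes each, the binomial intervals of these groups were wide, and all of them held the share of all genes.

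**Figure D1:**
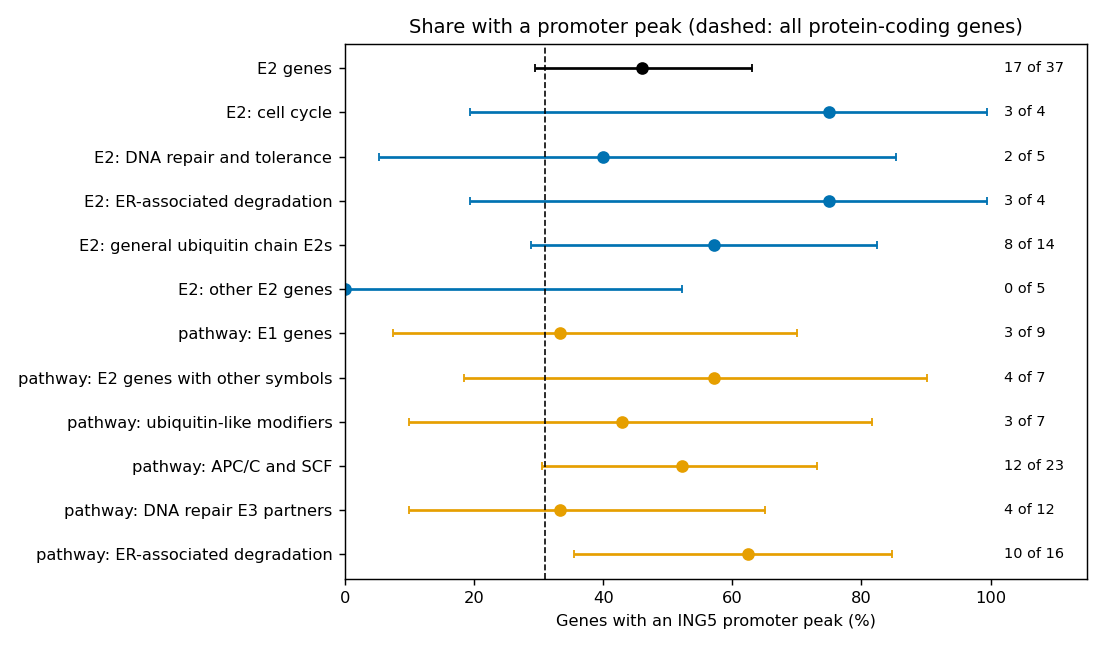
Share of genes with an ING5 promoter peak (x axis, percent) for the E2 genes, branches of them and lists of other ubiquitin pathway genes, with exact binomial 95% intervals as bars and the counts at the right. The dashed line marks the 30.9% of all protein-coding genes, and the E2 share is 45.9%. The interval of the ER-associated degradation list lies wholly to the right of the line. The lists were chosen with earlier results known, so no conclusion is drawn from that.

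The peaks were of middling height for this list. The best peaks of the 17 genes had 9 to 22 fragments, with a median of 14, and the median over the best peaks of all 6126 bound genes was 13. Fold enrichment ran from 5.40 to 12.4 with a median of 8.09, beside 7.01 for all bound genes. A pileup of at least 17 was reached by 5 of the 17 E2 genes (29.4%) and by 22.9% of all bound genes. The E2 genes were not ranked apart from each other, since their counting intervals overlapped and no test between genes was made. The highest value, 22 fragments at UBE2B, had a Poisson 95% interval of 13.8 to 33.3, and the lowest, 9 fragments at UBE2C, had one of 4.12 to 17.1, so that even these overlapped.

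Of the 17 best peaks, 16 stood over the genome-wide background of 0.853 fragments, and the exception was UBE2R2 with 0.951. Among all bound genes 61.6% stood over the genome-wide background. Over a common background the fold enrichment follows from the pileup alone. For that reason UBE2G1, UBE2J2, UBE2N and UBE2Q1, with 17 fragments each, all had 9.71-fold, and UBE2D2 and UBE2K, with 15 fragments each, both had 8.63-fold. Fold parted genes of equal count only at UBE2R2, which had 7.69-fold from 14 fragments, while UBE2H and UBE2L3 had 8.09-fold from the same count.

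**Figure D2:**
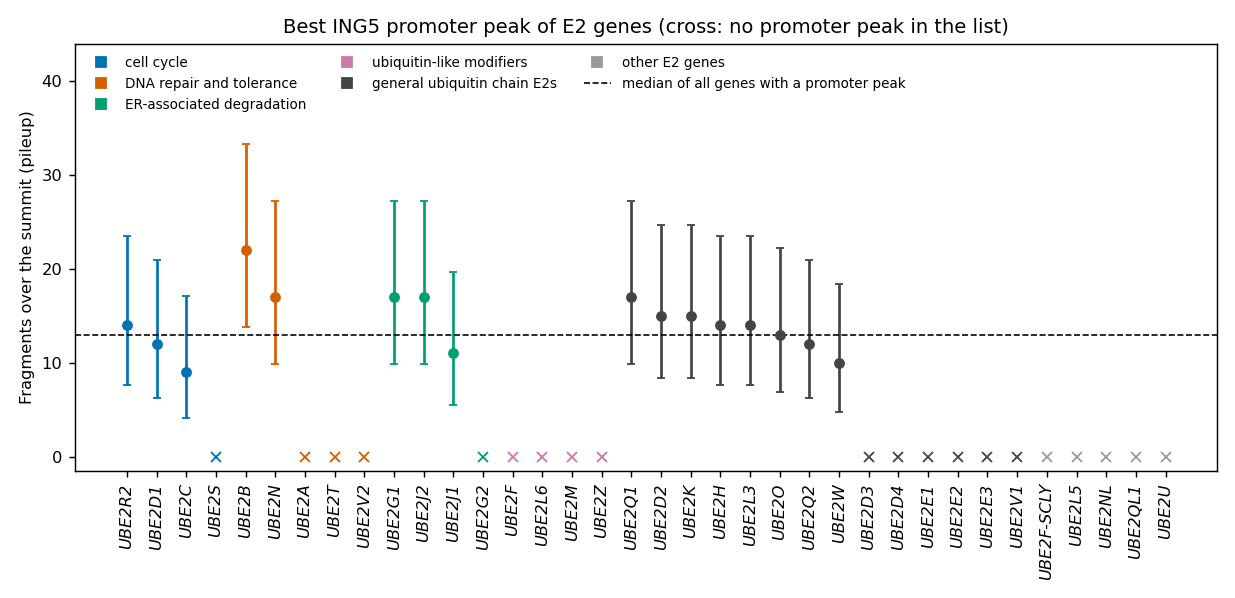
Fragments over the summit of the best promoter peak (y axis) of the E2 genes named in the text, coloured by branch, with Poisson 95% intervals as bars. Crosses are the 20 genes without a promoter peak in the list, which have no measured pileup; the dashed line is the median of 13 over all bound genes. Values run from 22 at UBE2B to 9 at UBE2C and the intervals overlap.

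The summits lay inside the genes. Measured from the canonical TSS, the start of the transcript that the annotation names as the representative one, all 17 best summits were downstream, at a median of 593 bp. Over all bound genes 79.0% were downstream of the canonical TSS, at a median of 344 bp. The closest E2 summit was that of UBE2D1 at 264 bp, so the first 200 bp after the canonical TSS held none. Of the 16 summits within 1000 bp of the canonical TSS, 8 lay at 264 to 504 bp and another 8 at 593 to 843 bp. By the canonical transcript, 15 of the 17 summits fell in the first intron and the other 2, at UBE2H and UBE2Q1, in a coding exon. Neither the intron placement nor the empty first 200 bp was counted over all bound genes. They describe the E2 genes without a comparison.

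Most of these genes have further annotated starts, and distances to those were shorter. The E2 genes with a peak had a median of 7 annotated TSSs and those without had 8, beside 8 and 4 over all genes with and without a peak. Measured from the nearest TSS of any transcript, the median offset was 283 bp downstream (163 bp for all bound genes), and 13 of 17 summits (76.5%) were downstream, beside 71.2% of all. Without the genes that share their best summit the order of these shares turned, with 71.4% of 14 E2 genes beside 78.3% of all, and it did so in a window of 200 bp as well (50.0% beside 69.5%). In 13 of the 17 genes the nearest TSS was not the canonical one, a count not made over all bound genes. The summit of UBE2Q2 lay 4 bp upstream of such an alternative start, that of UBE2N 15 bp upstream, that of UBE2D2 57 bp upstream and that of UBE2H 14 bp downstream. From the canonical TSS the same summits were at 593, 676, 633 and 443 bp. No transcript levels were measured here, so which start was in use was not known.

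**Figure D3:**
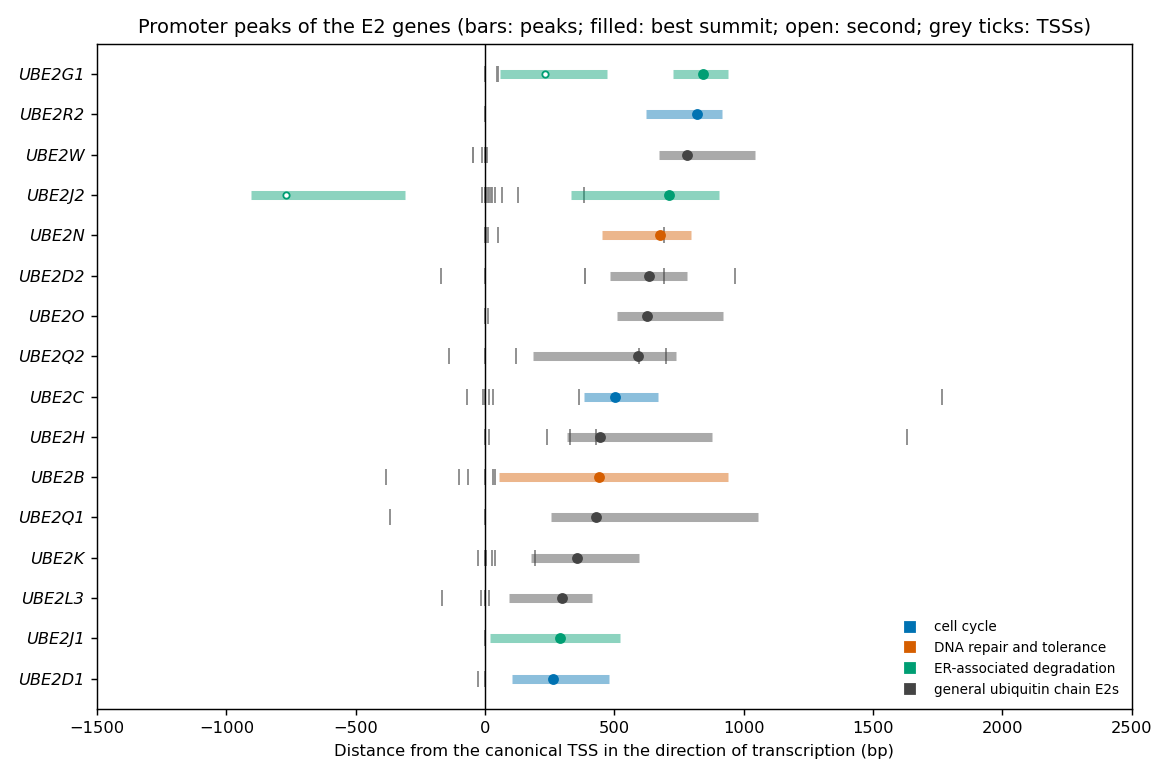
Position of the promoter peaks (bars) at the bound E2 genes named in the text along the direction of transcription (x axis, bp from the canonical TSS), with the best summit filled, a second summit open and annotated TSSs as grey ticks. All filled summits lie to the right of 0, from 264 bp at UBE2D1 to 843 bp at UBE2G1.

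In the cell cycle branch, UBE2C, UBE2D1 and UBE2R2 were bound and UBE2S was not. UBE2C is the E2 with which the anaphase-promoting complex (APC/C) starts ubiquitin chains on mitotic cyclins. Its peak had 9 fragments and 5.40-fold enrichment on chromosome 20 from 45813026 to 45813314, with the summit in the first intron, 504 bp from the canonical TSS and 142 bp from the nearest one. It was the lowest of the 17. UBE2S, which extends the chains that UBE2C starts, had no promoter peak, and the nearest summit lay 17.5 kb away at RPL28. Within the APC/C pair, then, only the chain-starting enzyme gene had a peak, at the low end of the range.

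UBE2D1 can also serve the APC/C, and its peak had 12 fragments (7.01-fold) on chromosome 10 from 58335110 to 58335485, with the summit 264 bp from its canonical TSS. UBE2R2, which works with the cullin ligases called SCF, had 14 fragments (7.69-fold) on chromosome 9 from 33817784 to 33818075. Its summit lay 820 bp from its only annotated TSS, the largest distance of a counted peak. The window of 1000 bp left a margin on its far side as well: the nearest summit to any unbound E2 gene was 7.08 kb away, at UBE2T.

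The upstream sequences of UBE2D1, UBE2R2 and UBE2S are shown to give the letters before the starts from which the peaks of this branch were measured. They come from RefSeq promoters of GRCh38.p14, cover up to 250 bases before the start, and leave out bases of annotated exons. Capitals mark matches, on either strand and counted with overlap, to the GC box GGGCGG, the CCAAT box CCAAT, the TATA box TATAAA, the ETS core CCGGAAG, the cell cycle element CHR TTTGAA and the cyclic AMP element CRE TGACGTCA. These 6 motifs were found in 42.6%, 32.0%, 10.7%, 8.52%, 13.3% and 1.65%, in that order, of 35116 RefSeq promoters cut to the same 250 bases. The stretches are chr10:58334756-58334978 on the plus strand for UBE2D1, chr9:33816910-33817159 on the plus strand for UBE2R2 and chr19:55407789-55408038 on the minus strand for UBE2S.
UBE2D1: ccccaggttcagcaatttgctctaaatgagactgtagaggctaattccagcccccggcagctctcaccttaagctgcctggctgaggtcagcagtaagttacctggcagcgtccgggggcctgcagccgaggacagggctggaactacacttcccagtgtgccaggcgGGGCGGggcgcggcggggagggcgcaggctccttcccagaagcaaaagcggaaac
UBE2R2: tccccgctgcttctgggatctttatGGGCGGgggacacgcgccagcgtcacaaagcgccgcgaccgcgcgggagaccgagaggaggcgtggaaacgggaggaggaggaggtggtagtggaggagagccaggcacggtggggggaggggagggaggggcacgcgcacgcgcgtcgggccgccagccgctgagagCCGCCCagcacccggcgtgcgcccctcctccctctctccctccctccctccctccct
UBE2S: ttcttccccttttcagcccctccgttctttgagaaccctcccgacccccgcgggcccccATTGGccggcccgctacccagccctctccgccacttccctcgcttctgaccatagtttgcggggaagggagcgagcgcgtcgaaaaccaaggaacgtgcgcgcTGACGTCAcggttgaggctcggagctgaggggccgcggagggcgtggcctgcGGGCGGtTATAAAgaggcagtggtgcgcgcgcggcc
The stretch of UBE2S held a CRE, a TATA box, a CCAAT box and a GC box. It was the only one of 27 E2 genes with sequence in which the TATA box or the CRE letters were found. Those of UBE2D1 and UBE2R2 held GC boxes and none of the other 5 motifs. No ING5 peak overlapped these stretches, since the peaks lay on the other side of the start.

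In the DNA repair and tolerance branch, UBE2B and UBE2N were bound, and UBE2A, UBE2T and UBE2V2 were not. UBE2A and UBE2B are the near-identical human RAD6 enzymes, which mark the sliding clamp PCNA at stalled replication forks. UBE2B had the highest pileup of all E2 genes, 22 fragments (12.4-fold), in a peak of 885 bp on chromosome 5 from 134371623 to 134372507, the widest of the family. Its summit lay 442 bp inside the gene and also within 1000 bp of a TSS of CDKL3, a kinase gene, and of a gene without a symbol, so the peak cannot be given to one of them. UBE2A, on the X chromosome, had no peak within 75.3 kb. The pair of RAD6 genes thus held the highest pileup of the family and a gene without a peak.

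UBE2N builds ubiquitin chains together with the catalytically inactive partners UBE2V1 and UBE2V2. Its peak had 17 fragments (9.71-fold) on chromosome 12 from 93441152 to 93441496. Neither partner gene was bound: the nearest summits lay 37.2 kb from UBE2V1, at the promoter of PEDS1, and 46.8 kb from UBE2V2, at that of MCM4. The PEDS1 promoter is also the annotated start of PEDS1-UBE2V1, a readthrough gene that takes in UBE2V1 exons, and its peak had 11 fragments. UBE2NL, an X-linked gene related to UBE2N, lay 4028 kb from the nearest summit. UBE2T, the E2 of the Fanconi anaemia pathway, had its nearest summit 7.08 kb upstream, at PPP1R12B, with 16 fragments.

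The upstream stretches of UBE2N, UBE2A and UBE2T, marked as above, are chr12:93441948-93442197 on the minus strand, chrX:119574317-119574516 on the plus strand and chr1:202341985-202342186 on the minus strand.
UBE2N: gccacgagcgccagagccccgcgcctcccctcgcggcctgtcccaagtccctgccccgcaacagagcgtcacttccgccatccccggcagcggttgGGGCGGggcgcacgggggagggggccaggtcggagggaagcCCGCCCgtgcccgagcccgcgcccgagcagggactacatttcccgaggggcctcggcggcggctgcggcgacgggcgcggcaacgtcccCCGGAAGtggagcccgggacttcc
UBE2A: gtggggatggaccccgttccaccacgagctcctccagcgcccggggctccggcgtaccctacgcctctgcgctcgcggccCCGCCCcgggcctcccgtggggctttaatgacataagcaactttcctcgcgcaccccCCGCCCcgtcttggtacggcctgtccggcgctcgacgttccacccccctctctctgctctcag
UBE2T: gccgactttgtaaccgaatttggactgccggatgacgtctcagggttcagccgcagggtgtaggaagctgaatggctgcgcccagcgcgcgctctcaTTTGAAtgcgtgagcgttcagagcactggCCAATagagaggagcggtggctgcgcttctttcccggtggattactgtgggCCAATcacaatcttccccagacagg
UBE2N held an ETS core close to its start and GC boxes farther up. UBE2A held GC boxes as well. The stretch of UBE2T held the CHR letters and 2 CCAAT boxes, and its 1 GC box fell outside the stretch shown, toward the start. The full 250 bases had 77.2% G and C in UBE2N, 70.0% in UBE2A and 60.8% in UBE2T, beside a median of 58.0% over all RefSeq promoters.

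In the ER branch, UBE2G1, UBE2J1 and UBE2J2 were bound and UBE2G2 was not. UBE2J1 and UBE2J2 are anchored in the ER membrane, and UBE2G1 and UBE2G2 are cytosolic enzymes that act on proteins drawn out of the ER. UBE2J2 had 2 peaks, and neither covered the canonical TSS, although the better one covered an annotated start 383 bp inside the gene. The better one, with 17 fragments (9.71-fold), covered chromosome 1 from 1272951 to 1273521 and had its summit 710 bp inside the gene. The other, with 11 fragments (6.47-fold), covered 1274162 to 1274758 and peaked 769 bp upstream of the canonical TSS. UBE2J2 was the only E2 gene with promoter peaks on both sides of its canonical start.

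UBE2G1 also had 2 peaks, both inside the gene. The better had 17 fragments (9.71-fold) in only 212 bp, from 4365737 to 4365948 on chromosome 17, the narrowest best peak of the family, with its summit 843 bp inside. The second had 10 fragments (5.94-fold) with its summit 231 bp inside, in an untranslated part of an exon. UBE2J1 had 1 peak of 11 fragments (6.47-fold) on chromosome 6 from 89352199 to 89352702, 291 bp inside. UBE2G2 had no promoter peak. The summit nearest to it lay 15.6 kb upstream, at the promoter of SUMO3, which encodes a ubiquitin-like modifier.

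The upstream stretches of the bound genes of this branch are chr6:89352723-89352972 for UBE2J1, chr1:1273865-1274104 for UBE2J2 and chr17:4366676-4366925 for UBE2G1, each on the minus strand, with capitals as above.
UBE2J1: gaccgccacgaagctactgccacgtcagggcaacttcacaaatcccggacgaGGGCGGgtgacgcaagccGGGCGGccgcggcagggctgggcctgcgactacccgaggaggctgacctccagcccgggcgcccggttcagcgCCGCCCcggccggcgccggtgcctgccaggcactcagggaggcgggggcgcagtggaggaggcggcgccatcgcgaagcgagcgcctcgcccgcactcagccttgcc
UBE2J2: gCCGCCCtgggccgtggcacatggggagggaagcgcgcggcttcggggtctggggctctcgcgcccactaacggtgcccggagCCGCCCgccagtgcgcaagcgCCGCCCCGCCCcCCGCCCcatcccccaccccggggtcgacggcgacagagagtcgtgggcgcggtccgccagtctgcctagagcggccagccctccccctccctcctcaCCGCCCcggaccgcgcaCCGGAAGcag
UBE2G1: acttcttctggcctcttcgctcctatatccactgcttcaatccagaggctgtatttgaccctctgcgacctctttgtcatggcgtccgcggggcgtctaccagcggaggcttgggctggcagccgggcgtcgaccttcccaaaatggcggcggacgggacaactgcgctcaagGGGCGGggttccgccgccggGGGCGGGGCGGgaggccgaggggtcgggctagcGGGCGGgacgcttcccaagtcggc
GC boxes were found 3 times in UBE2J1, 6 times in UBE2J2 and 4 times in UBE2G1, and UBE2J2 also held an ETS core. The stretch of UBE2J2 lay in the gap between its 2 peaks. Its 240 bases ended 10 bases before the start and held neither summit.

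Among carriers of ubiquitin-like proteins, UBE2M, UBE2F, UBE2L6 and UBE2Z had no promoter peak. UBE2M and UBE2F pass NEDD8 to cullins, and their nearest summits lay 12.03 kb away, at TRIM28, and 274 kb away, at LRRFIP1. UBE2F-SCLY, a readthrough gene with UBE2F, starts beside it and shares that absence. UBE2L6, the E2 of the interferon-induced modifier ISG15, was 45.3 kb from a summit, and UBE2Z, which carries FAT10, was 23.1 kb away. ISG15 itself had a promoter peak, with 11 fragments.

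Of the general ubiquitin chain E2s, the close paralogues of the UBE2D group parted. UBE2D1 and UBE2D2 were bound, and UBE2D3 and UBE2D4 were not. UBE2D2 had 15 fragments (8.63-fold) on chromosome 5 from 139561823 to 139562120. It also had a peak of 9 fragments inside its annotated span but 11730 bp from its nearest TSS, which was not counted. UBE2D3, with 30 annotated TSSs the most of any E2 gene, lay 208 kb from the nearest summit, and UBE2D4 20.4 kb. UBE2E1, UBE2E2 and UBE2E3 were all unbound, with nearest summits 50.3, 713 and 830 kb away.

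UBE2E1 is shown as the unbound gene with a full stretch of 250 bases and none of the 6 motifs, at chr3:23805705-23805954 on the plus strand.
UBE2E1: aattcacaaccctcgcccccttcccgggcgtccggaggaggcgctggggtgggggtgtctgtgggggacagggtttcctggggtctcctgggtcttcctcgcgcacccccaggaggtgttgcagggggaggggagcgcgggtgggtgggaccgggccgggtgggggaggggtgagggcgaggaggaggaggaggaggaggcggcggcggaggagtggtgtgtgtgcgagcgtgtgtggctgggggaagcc
Its 250 bases had 72.4% G and C and 17 CpG dinucleotides, beside medians of 58.0% and 11 over all RefSeq promoters. Any link of base content with binding was not tested. Since only 27 of the 37 E2 genes (73.0%) had a RefSeq sequence at their canonical start, a comparison of base content or motifs between the bound and the unbound E2 genes is void, and the stretches describe single genes alone.

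The highest of the remaining general E2s was UBE2Q1, with 17 fragments (9.71-fold) in a peak of 802 bp on chromosome 1 from 154557606 to 154558407, 428 bp inside the gene. Its paralogue UBE2Q2 had 12 fragments (7.01-fold) on chromosome 15 from 75843632 to 75844185. UBE2K, which extends chains on substrates that already carry ubiquitin, had 15 fragments (8.63-fold) on chromosome 4 from 39698314 to 39698732. UBE2H had 14 fragments (8.09-fold) on chromosome 7 from 129952081 to 129952643, and UBE2L3, the partner of RING-between-RING ligases such as parkin, had 14 (8.09-fold) on chromosome 22 from 21567806 to 21568127. These 5 genes thus spanned 12 to 17 fragments around the family median of 14.

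UBE2O, a large enzyme that joins E2 and E3 functions, had 13 fragments (7.55-fold) on chromosome 17 from 76452232 to 76452642. Its summit was also within 1000 bp of a TSS of AANAT. UBE2W, which modifies the amino terminus of proteins, had 10 fragments (5.94-fold), with its summit 781 bp from the canonical TSS and within 1000 bp of a TSS of a gene that has no symbol in the annotation. With UBE2B and CDKL3, these were the 3 bound E2 genes (17.6%) whose summit was shared with another protein-coding gene, beside 31.5% of all bound genes. A second promoter peak was found in 17.6% of the bound E2 genes and a second or further one in 23.0% of all bound genes.

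The 20 E2 genes without a promoter peak had none close by. Their nearest summit lay between 7.08 kb and 4028 kb from a TSS, with a median of 60.2 kb, and was in each case in the promoter of another gene. It lay within 10 kb for 1 gene, from 10 to 100 kb for 11 and beyond 100 kb for 8. A window of 3000 bp added no E2 gene to the 17. Over all protein-coding genes it also added few, with a share of 32.9% in place of 30.9%. The family thus fell into genes with a summit at most 820 bp from a TSS and genes with none within 7 kb. A site too weak to reach the authors' p cutoff at this depth is not in the list, so a weaker signal at the 20 genes was not detectable here. Of the genes outside the branches, UBE2U was 429 kb, UBE2L5 572 kb and UBE2QL1 70.003 kb from the nearest summit.

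**Figure D4:**
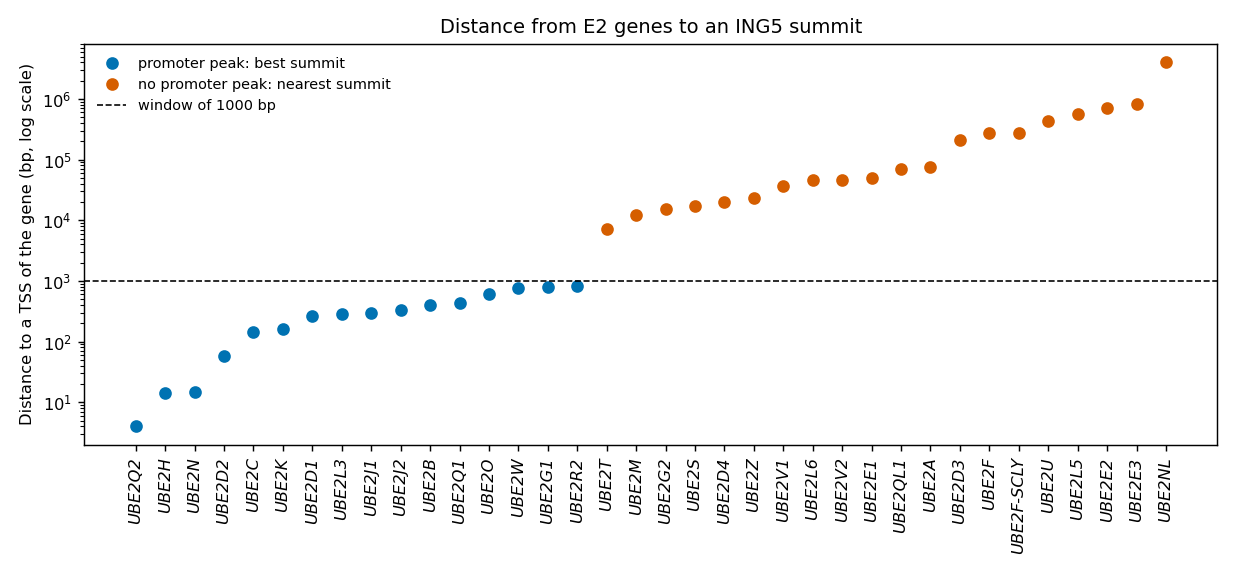
Distance in bp (y axis, log scale) from a TSS of the E2 genes named in the text to the summit of its best promoter peak (blue) or, where it has none, to the nearest summit (orange). The dashed line is the window of 1000 bp; bound genes end at 820 bp, and the nearest unbound gene, UBE2T, is at 7082 bp.

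The other genes of the pathway gave the setting. Over 78 genes of 7 lists, 40 had a promoter peak (51.3%), with a median pileup of 13, beside 30.9% and 13 for all protein-coding genes. Among genes that encode ubiquitin, RPS27A, which fuses it to a ribosomal protein, had 13 fragments (6.22-fold) in a peak shared with CLHC1, and the polyubiquitin gene UBB had 8 (4.78-fold). Of 9 E1 genes 3 were bound, among them SAE1 with 20 fragments (11.3-fold) and UBA2 with 11 (5.33-fold), which encode the SUMO E1. UBA1, the main ubiquitin E1 gene, had no promoter peak (UBA1 was named after its value was seen).

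E2 genes without the UBE2 prefix were bound in 4 of 7 cases. CDC34, the paralogue of UBE2R2 that acts with SCF, had 13 fragments (7.55-fold), BIRC6 15 (7.08-fold) and UFC1 9 (5.40-fold). The genes of ubiquitin-like modifiers were bound in 3 of 7, SUMO2 with 13 fragments (7.55-fold), ISG15 with 11 (6.47-fold) and SUMO3 with 10 (5.94-fold). So CDC34 and UBE2R2, the pair of SCF enzymes, were both bound.

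Among E3 partners, genes of the APC/C and SCF were bound in 12 of 23. SKP2, a substrate receptor of SCF, had 35 fragments (10.4-fold over a raised background of 2.46), ANAPC11, the catalytic subunit of the APC/C, 23 (12.9-fold), and ANAPC13 24 (11.1-fold). Each of these peaks was shared with a neighbour: SKP2 with LMBRD2, ANAPC11 with ALYREF and ANAPC13 with CEP63. The Poisson interval of SKP2 began at 24.4 fragments, above the ends of those of the 3 bound cell cycle E2 genes, the highest of which was 23.5 at UBE2R2. These pileups do not share a background: it was 2.46 at SKP2, 0.951 at UBE2R2 and 0.853 at UBE2C and UBE2D1. In fold enrichment SKP2 was below ANAPC11 and ANAPC13. The intervals of ANAPC11 and ANAPC13 began at 14.6 and 15.4 and overlapped that of UBE2C, which ended at 17.1.

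DNA repair E3 partners were bound in 4 of 12, led by RNF40, which works with the RAD6 enzymes on histone H2B, with 13 fragments (7.55-fold) in a peak shared with CFAP119, and RNF4 and RNF8 with 12 each (7.01-fold). Genes of ER-associated degradation were bound in 10 of 16 (62.5%). MARCHF6, an ER membrane ligase that works with UBE2J2 and UBE2G2, had 26 fragments (7.36-fold over a raised background of 2.67). AUP1, which recruits UBE2G2 to the ER, had 16 (9.17-fold) in a peak shared with HTRA2, and VCP, the ATPase that draws proteins out of the membrane, had 15 (8.63-fold). The DNA repair branch and its partner list thus had 2 of 5 and 4 of 12 genes bound, and the ER branch and its partner list 3 of 4 and 10 of 16. The binomial 95% intervals of the branches overlapped, with 5.27% to 85.3% for repair and 19.4% to 99.4% for ER. Those of the partner lists overlapped as well, with 9.92% to 65.1% for repair and 35.4% to 84.8% for ER. Among these groups, only the ER list had an interval wholly above the 30.9% of all protein-coding genes. The lists were chosen with earlier results of these data known, so no conclusion is drawn from that. Differences between the repair and ER groups were not tested, and overlap of intervals does not decide them.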

How the data were processed

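ChIP-seq fragments of 1 ING5 library were compared with 1 input library by the authors. Per the file headers, MACS2 2.1.1.20160309 called the peaks from paired ends with 1e-05 as the p cutoff, and the names of its inputs point to prior removal of duplicate and multi-mapped reads. The submitters' processing notes list fastp 0.19.6 with Bowtie2 and deepTools. The deposited pileup, a coverage signal, counts fragments at a summit. The deposited −log10 p ranked peaks, and the deposited −log10 q was not used, because per the file headers no q was to be computed. The deposited fold enrichment is a ratio to the local background, which was recovered from it with a pseudocount of 1; values within 0.001 of the lowest counted as genome-wide background.

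The labels name GRCh37, but 76.0% of 8589 summits lay within 1000 bp of a TSS at its GRCh38 position and 13.7% at its GRCh37 position, so positions were read as GRCh38. TSSs came from the GENCODE 44 annotation, which records the GRCh38 place of each exon. A gene was described by its promoter peak with the highest −log10 p. Intervals are exact binomial and exact Poisson at 95%. The Poisson intervals of pileups cover counting error of fragments only. The binomial intervals treat the genes of a group as independent draws, which a chosen family or list is not. They are given as a description of group size. No tests were made. Assignment was tested on simulated data: all 121 of 121 simulated summits inside the window were recovered with their offset over 19819 genes, and 0 of 79 outside it were assigned. The members, branches and lists were chosen with earlier results of these data known. E2 genes were named, with up to 3 genes per pathway list by significance (UBB was named after its value was seen) and genes sharing a summit; genes at the nearest summit of an unbound E2 gene were named after their values were seen. Some genes of the family and the lists are not reported here singly, but enter the counts and medians. Python 3.11.15, pandas 2.3.3 and scipy 1.17.1 were used.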

Additional observations from a re-analysis of the deposited data

How the results depend on the processing

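No paired analysis was possible because each group has 1 library. Of 9 alternatives, 8 left the share of E2 genes with a promoter peak above that of all genes under the same setting; the exception was the 1000 most significant peaks, with 1 of 37 E2 genes, UBE2B (2.70%), beside 4.77%. The interval of the E2 share lay wholly above the share of all genes in 4 of the 9: when only peaks over the genome-wide background were kept (27.1% to 60.5%, beside 19.9%), with the more significant or the higher of 2 equal parts of the peaks (20.2% to 52.5% in both, beside 19.3% and 19.4%) and without genes that share their best summit (24.6% to 59.3%, beside 23.5%). The last of these removes bound genes alone, 17.6% of those among the E2 genes and 31.5% of those among all genes. With the 1000 peaks, as follows from keeping so few peaks, 1 of 6 branches in place of 4 had a share above that of all genes, and the single remaining summit gave a median pileup of 22, a median fold enrichment of 12.4 and 100% downstream. With canonical transcripts alone the median offset was 548.5 bp in place of 283 and 100% of 16 summits were downstream in place of 76.5%, since the distance is then taken from another start. A window of 200 bp left 8 genes (21.6%, beside 13.5% of all genes), with a median offset of 5 bp and 50.0% downstream, beside 64 bp and 69.5% of all, so that both comparisons with all genes turned; a narrower window keeps nearer summits by construction. That window also left 1 of 4 cell cycle, 1 of 4 ER, 1 of 5 repair and 4 of 14 general E2 genes. Without shared summits 1 of 4 repair genes was bound. The 1000 peaks left 1 of 5 repair genes and none of the other branches. Of 54 recomputed shares, medians and counts of branches, 10 moved past their interval or, for counts, past a set ratio. Only the median offset could change sign, and it did not. Comparisons with all genes did turn for the share with the 1000 peaks and for offset and downstream share in the 200 bp window. The downstream share also turned without shared summits (71.4% beside 78.3%). No alternative added an E2 gene to the 17. UBE2C, UBE2J1 and UBE2W were among the 4 genes lost when the more significant or the higher of 2 equal parts of the peaks was kept. With 9 to 22 fragments a peak, depth limits any ranking of these genes.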
